A study of Mus musculus with 28 samples.

Results

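The genes described here are 8 markers of the oligodendrocyte lineage in mouse cortex, 48 h after a mechanical brain injury and in mice with or without Rbm5. They are the transcription factor genes Olig1, Olig2 and Sox10, the receptor genes Pdgfra, Ptprz1 and Gpr17, and the proteoglycan genes Cspg4 and Vcan. They were taken by symbol from the annotation of the array, with the brightest row per symbol, and all 8 had exactly 1 row among the 65956 rows (transcript clusters) tested. The row of Pdgfra also lists Mir7025, a microRNA gene that lies within Pdgfra (chromosome 5, 75176831 to 75176904), so its signal cannot be assigned to one of them, and 7 of the 8 rows carry 1 gene.

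Gene expression was measured on 28 MTA 1.0 arrays, 1 per animal, in 4 groups of 7: wild type (WT) after sham, WT after controlled cortical impact (CCI), Rbm5 knockout (KO) after sham, and KO after CCI. Mice were aged 12 to 15 weeks and of both sexes, with 4 males in KO sham and 3 in each other group. CCI animals had the skull opened over the left parietal cortex and an impact at 6 m/s to a depth of 1.2 mm, whereas sham animals had anaesthesia alone, so craniotomy and impact cannot be told apart. All animals were perfused with cold saline buffer, and brain tissue was frozen. The strain and the way the knockout was made are not given in the sources used here. Rbm5, the targeted gene, had a lower signal on all 7 KO arrays than on all 7 WT arrays after sham (log2 difference -1.02, SE 0.038, limma adjusted p = 5.6e-16) and after CCI (-0.91, SE 0.038, adjusted p = 7.98e-15).

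Some arrays carried more signal of neighbouring tissue than others. The mean log2 signal of 8 measured striatum markers reached 7.73 among WT sham arrays, 9.72 among WT CCI, 8.34 among KO sham and 9.92 among KO CCI, from lowest values of 7.18, 7.03, 7.23 and 7.08. That of 9 choroid plexus markers reached 8.23, 8.40, 6.32 and 8.10 in the same order, against medians of 6.25, 6.12, 5.99 and 6.04. No striatum marker was called with injury in either genotype, and 1 choroid plexus marker rose in knockout. All 8 striatum markers nevertheless had a positive difference with injury in both genotypes (median log2 change 0.516 in wild type and 0.468 in knockout). Their list mean was widely spread on injured arrays, with an SD of 1.24 in WT CCI and 1.04 in KO CCI against 0.17 and 0.40 after sham. The comparisons were therefore also run without the 7 arrays that stood out in an earlier look at these data, which were WT sham 25, WT CCI 13, 14, 16 and 35, and KO CCI 22 and 40. Only replicates 15, 34 and 36 were then left in WT CCI, so wild type results of that setting rest on few injured arrays.

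Oligodendrocyte precursor cells are the dividing glia that give rise to the myelinating oligodendrocytes, and they persist throughout the adult cortex. Olig2, Olig1 and Sox10 act within the nucleus to set and keep the lineage, and platelet-derived growth factor acts through the receptor encoded by Pdgfra to keep precursors dividing. Precursors are known to divide and gather around cortical wounds. None of these genes is exclusive to precursors. Olig1, Olig2 and Sox10 are also made by mature oligodendrocytes, Olig2 and Ptprz1 by astrocytes, Pdgfra by fibroblasts, Cspg4 by pericytes, and Vcan by monocytes and fibroblasts. In bulk tissue, more cells of a type and more RNA per cell cannot be told apart.

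After injury in wild type, 5 of the 8 genes rose and none fell (limma, Benjamini-Hochberg adjusted p under 0.05 over all rows), against 8.86% of all rows that rose in that comparison. These were Olig2, Olig1, Vcan, Ptprz1 and Sox10. In knockout 3 of the 8 rose and none fell, namely Olig2, Sox10 and Vcan, against 8.43% of all rows. The 3 genes that rose in knockout were among the 5 that rose in wild type. The median log2 change of the 8 genes was 0.35 in wild type and 0.24 in knockout, beside medians over all rows of -0.023 and 0.012. Over all rows in knockout 5560 rose and 5457 fell, a split that became 4021 and 7576 after centring each array on its median, and the calls of the 8 genes in knockout were the same after that centring. Pdgfra, Gpr17 and Cspg4 were not called in either genotype. The knockout count was 5 of 8, with Olig1 and Ptprz1 added, under quantile normalization, under array weights and among rows brighter than the median row. In those settings 5236, 5860 and 4740 rows rose in knockout. The last count is out of the brighter rows alone, so 8.43% is not its share. Without the 7 arrays 4 genes rose in wild type (Olig1, Olig2, Ptprz1 and Vcan) and 2 in knockout (Olig2 and Sox10). Over all rows 4812 rose in wild type and 4993 in knockout in that setting.

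**Figure D1:**
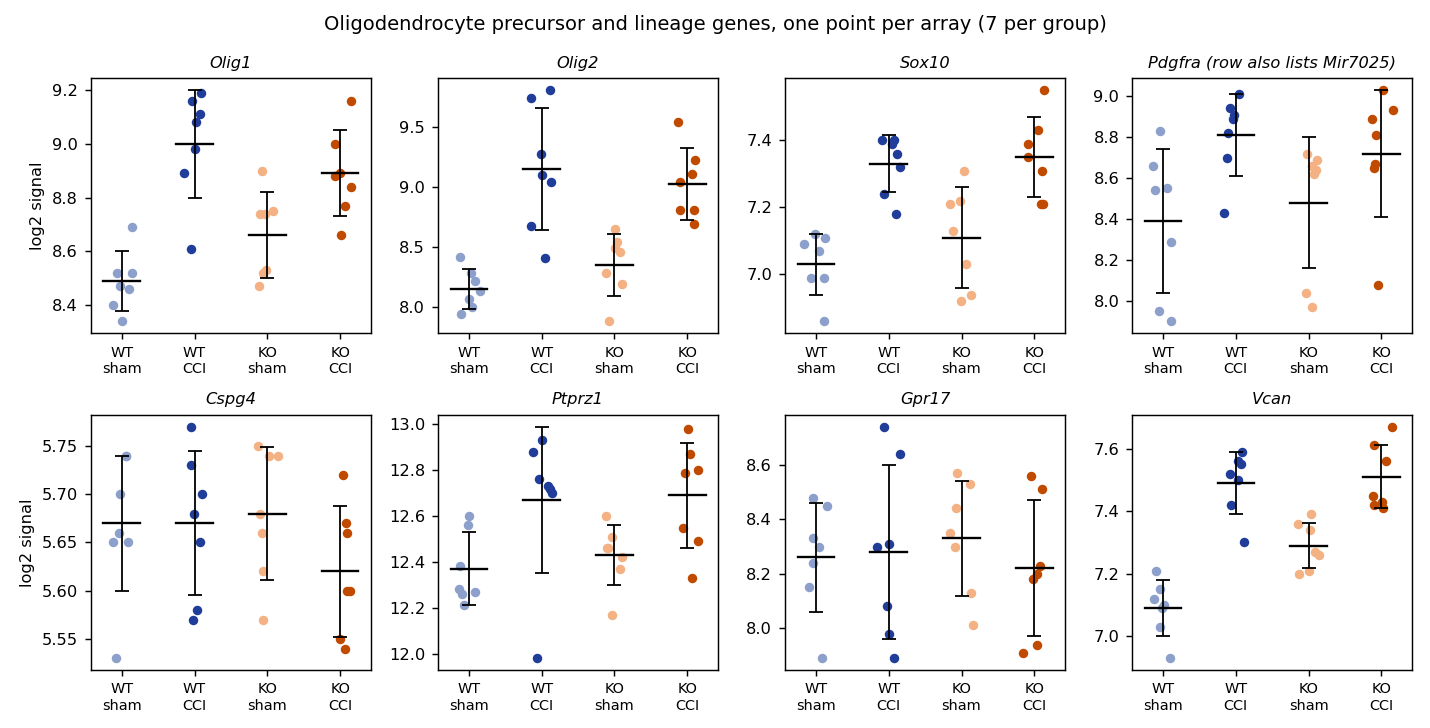
Log2 signal of each of the 8 genes on each array (vertical axes, which differ between panels and do not start at 0) in the 4 groups, with 1 point per array, a horizontal line at the mean and bars of 1 SD (n = 7). For Vcan all 7 injured arrays lie above all 7 sham arrays in both genotypes, while the groups of Gpr17 and Cspg4 overlap.

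Olig2 encodes a basic helix-loop-helix transcription factor required for the oligodendrocyte lineage, and its gene spans 91225550 to 91228677 of chromosome 16 (GRCm38.p6). It had the largest change of the 8 in both genotypes. In WT sham the log2 signal ran from 7.94 through a median of 8.13 to 8.42, and in WT CCI from 8.41 through 9.10 to 9.81. Of the 7 injured wild type arrays 6 lay above the highest sham array, and the seventh, replicate 35, lay within the sham range. The difference was 1.00 on the log2 scale (SE 0.17, 2-fold, limma adjusted p = 7.35e-05). In KO sham Olig2 ran from 7.88 through 8.46 to 8.65, and in KO CCI from 8.69 through 9.04 to 9.54, so that the groups did not overlap. The knockout change was 0.67 (SE 0.17, 1.6-fold, adjusted p = 0.00581). Without the 7 arrays the changes were 1.37 (adjusted p = 2.23e-05) and 0.72 (0.00395). The WT CCI arrays kept there were replicates 15, 34 and 36, and replicates 36 and 34 had the highest Olig2 signals of the group. Injured wild type arrays were more spread than sham arrays, with an SD of 0.51 against 0.17. The 3 highest were replicates 36, 34 and 16 at 9.81, 9.74 and 9.28.

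Olig1, a close relative whose gene starts 41091 bases after the end of Olig2 on the same chromosome (91269769 to 91271939), moved by a smaller amount. Its log2 signal was between 8.34 and 8.69 in WT sham (median 8.47) and between 8.61 and 9.19 in WT CCI (median 9.08). Again 6 of 7 injured arrays lay above all sham arrays and replicate 35 did not. The wild type change was 0.52 (SE 0.085, 1.43-fold, limma adjusted p = 4.85e-05), and 0.54 without the 7 arrays (adjusted p = 0.0015). In knockout Olig1 ran from 8.47 to 8.90 after sham (median 8.74) and from 8.66 to 9.16 after injury (median 8.88), and only 2 of 7 injured arrays exceeded the highest sham array. That difference of 0.22 (SE 0.086) was not called (adjusted p = 0.0754, 95% confidence interval 0.0483 to 0.401). It passed the threshold when any of KO sham replicate 32, KO CCI replicate 41 or WT CCI replicate 35 was left out (adjusted p = 0.0388, 0.0413 and 0.0434). The signal of Olig2 relative to Olig1 on the same array shifted upward in both genotypes. The log2 difference between the rows was -0.34 ± 0.11 (SD, n = 7) after sham and 0.15 ± 0.43 after CCI in wild type, against -0.31 ± 0.23 and 0.15 ± 0.27 in knockout. This contrast was chosen after the values were seen and was not tested, and it shows unequal change of the signals, not the relative amounts of the transcripts.

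Sox10 encodes an HMG-box transcription factor that acts with the Olig proteins and drives myelin genes (chromosome 15, 79154913 to 79164490). In wild type all 7 injured arrays, at 7.18 to 7.40 (median 7.36), lay above all 7 sham arrays, at 6.86 to 7.12 (median 7.07). The change was small, 0.29 on the log2 scale (SE 0.064, 1.23-fold, limma adjusted p = 0.00123). In knockout the injured arrays ran from 7.21 to 7.55 (median 7.35) and the sham arrays from 6.92 to 7.31 (median 7.13), and 5 of 7 injured arrays exceeded the highest sham array. The knockout change of 0.25 (SE 0.064, adjusted p = 0.00663) was nearly as large as that in wild type. Without the 7 arrays the wild type call was lost (0.28, adjusted p = 0.0531).

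Vcan encodes versican, a large chondroitin sulphate proteoglycan of the extracellular matrix (chromosome 13, 89655309 to 89743027). It had the smallest p-value of the 8 genes in both genotypes. In WT sham its log2 signal ran from 6.93 through 7.10 to 7.21, and in WT CCI from 7.30 through 7.52 to 7.59. In KO sham it ran from 7.20 through 7.27 to 7.39, and in KO CCI from 7.41 through 7.45 to 7.67. Injured arrays lay above sham arrays without overlap in wild type and in knockout. The changes were 0.40 (SE 0.053, 1.32-fold, limma adjusted p = 1.91e-06) and 0.21 (SE 0.053, 1.16-fold, adjusted p = 0.00484). Without the 7 arrays the knockout call was lost (0.16, adjusted p = 0.0609). Counting over the set, all injured arrays lay above all sham arrays for 2 of the 8 genes in wild type (Sox10 and Vcan), against 4.44% of all rows. The same held for 2 of 8 in knockout (Olig2 and Vcan), against 3.51%.

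Of the genes called in both genotypes, Olig2 and Vcan had a promoter entry in the RefSeq table (GRCm38.p6), as did 5 of the 8 genes in all. The 250 bases before the start site that the table gives for each gene are shown because Olig2 had the largest changes and Vcan separated injured from sham arrays in both genotypes, 5′ to 3′ on the strand of the gene, with GC boxes (GGGCGG on either strand) in capitals. The start site of Olig2 (91225550) is the first base of the gene span given above. That of Vcan lies 515 bases inside its span, so the Vcan window lies within the annotated gene and not before its outermost start.
Olig2, chr16:91225300-91225549, plus strand: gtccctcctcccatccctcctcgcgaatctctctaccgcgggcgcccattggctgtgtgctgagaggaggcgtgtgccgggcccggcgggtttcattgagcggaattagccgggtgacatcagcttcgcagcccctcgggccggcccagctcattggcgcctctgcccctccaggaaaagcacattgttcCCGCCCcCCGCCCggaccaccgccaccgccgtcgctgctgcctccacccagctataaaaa
Vcan, chr13:89742513-89742762, minus strand: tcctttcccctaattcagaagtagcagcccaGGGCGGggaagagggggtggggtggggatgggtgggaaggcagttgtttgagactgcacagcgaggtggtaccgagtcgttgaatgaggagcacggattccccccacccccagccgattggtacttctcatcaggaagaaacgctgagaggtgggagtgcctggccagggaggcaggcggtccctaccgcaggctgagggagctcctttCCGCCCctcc
Each window held 2 GC boxes, as 32.7% of 32851 promoter windows of that length held at least 1. The windows of Cspg4 and Ptprz1 also held 2, and that of Pdgfra held none. Neither printed window held the E-box CAGCTG (in 13% of windows) or ACAAAG (16.5%), a form of the SOX motif. Nor did they hold the AP-1 motif TGANTCA (6.75%) or the STAT motif TTCNNNGAA (7.02%). Each was searched on both strands, and other forms of the SOX motif were not searched. The looser E-box CANNTG (66.2% of windows) occurred once in the Vcan window and not in that of Olig2. A match or its lack is a statement about letters in these windows alone.

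The receptors were less uniform. Ptprz1 encodes a receptor tyrosine phosphatase with chondroitin sulphate chains that binds pleiotrophin (chromosome 6, 22875315 to 23052916). In WT sham its log2 signal lay between 12.21 and 12.60 (median 12.28). In WT CCI 6 of 7 arrays, at 12.70 or above, exceeded all sham arrays, and replicate 35 at 11.98 lay below all of them. The change of 0.31 (SE 0.11, 1.24-fold) had a limma adjusted p = 0.04999, which is the edge of the threshold. The call was lost in 23 of the 28 fits that left out 1 array. It held without WT sham replicate 25, WT CCI replicate 35 or KO CCI replicates 23, 24 and 40, and without WT CCI replicate 35 the change was 0.41 (adjusted p = 0.000907). It was 0.46 without the 7 arrays (adjusted p = 0.00733), and the call was lost with quantile normalization, with centring, without the sex term and with only the arrays compared (adjusted p = 0.0642 to 0.0901). In knockout Ptprz1 ran from 12.17 to 12.60 after sham (median 12.46) and from 12.33 to 12.98 after injury (median 12.79). Its knockout change of 0.28 (SE 0.11) was close to that in wild type and was not called (adjusted p = 0.0749). It was called without any of KO CCI replicates 23 and 40 or WT CCI replicate 35 (adjusted p = 0.0386, 0.0483 and 0.0196), and with the striatum mean as a covariate (0.35, adjusted p = 0.0102).

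The row listed as Pdgfra and Mir7025 (Pdgfra spans 75151322 to 75198206 of chromosome 5) had the widest sham spread of the 8, with an SD of 0.35 in WT sham and 0.32 in KO sham. It ran from 7.90 through 8.54 to 8.83 in WT sham and from 8.43 through 8.89 to 9.01 in WT CCI, with 4 of 7 injured arrays above the highest sham array. The wild type difference was 0.43 (SE 0.15, limma adjusted p = 0.0582, 95% confidence interval 0.109 to 0.742), larger than the called change of Ptprz1 but less certain. It was called without any of WT sham replicate 25, WT CCI replicate 15, KO sham replicates 9 and 11 or KO CCI replicate 21 (adjusted p = 0.0288 to 0.0476), and with only the arrays compared, among brighter rows and with array weights (adjusted p = 0.0365, 0.0366 and 0.048). In knockout it ran from 7.97 to 8.72 after sham (median 8.64) and from 8.08 to 9.03 after injury (median 8.81), a difference of 0.25 (SE 0.16, adjusted p = 0.318).

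Gpr17, a receptor made by precursors that have begun to differentiate, overlapped between all groups. It lies on chromosome 18 at 31942999 to 31949890. Its median was 8.30 after sham and 8.30 after CCI in wild type, against 8.35 and 8.20 in knockout, and single arrays ran from 7.89 to 8.74. The log2 difference with injury was 0.014 in wild type (SE 0.13, limma adjusted p = 0.965, 95% confidence interval -0.248 to 0.275) and -0.10 in knockout (SE 0.13, adjusted p = 0.678, interval -0.367 to 0.159). Changes of the size seen for Olig2 lie outside both intervals. Cspg4, the proteoglycan known as NG2 that is used to stain precursors (chromosome 9, 56865104 to 56899870), had the row nearest background. Its log2 signal lay between 5.53 and 5.77 on all 28 arrays, below the median of the tested rows on each array, and 30.7% of the 5222 negative control rows were dimmer. Negative control rows spread widely, with a 95th percentile of row means at 10.24, which among the 8 genes only the mean of Ptprz1 exceeded. Of those rows 62.4% were dimmer than Sox10, 65.1% than Vcan and 80.2% to 85.4% than Gpr17, Pdgfra, Olig2 and Olig1. By this measure signal above background was not established for Cspg4, and for Sox10 and Vcan it was limited. For Cspg4 the differences of 0.0041 in wild type (adjusted p = 0.97) and -0.062 in knockout (adjusted p = 0.418) therefore say little about the gene.

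**Figure D2:**
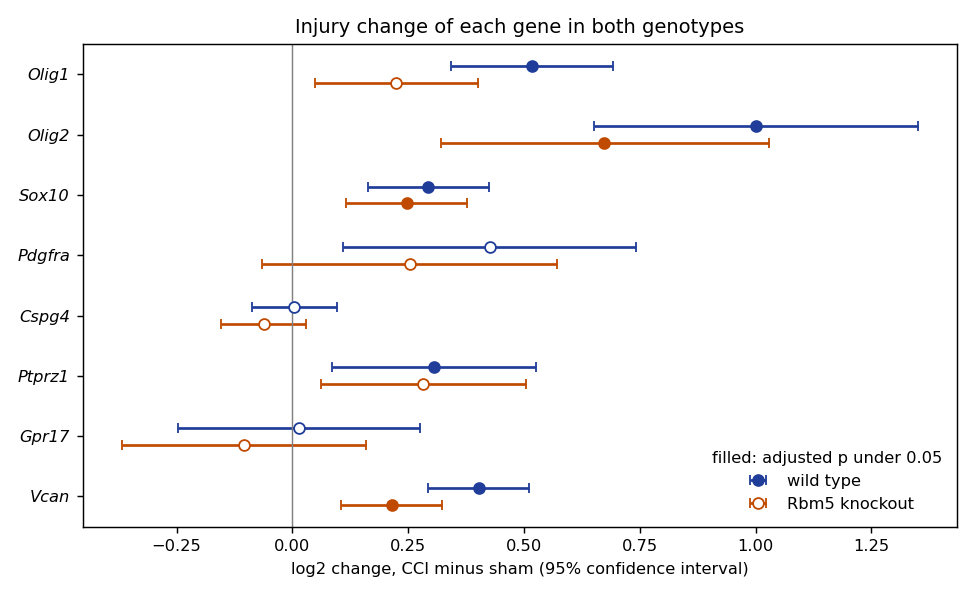
Log2 change from sham to CCI (horizontal axis) with its 95% confidence interval for each gene (vertical axis) in wild type and in Rbm5 knockout, from the limma fit over all rows. Filled points have an adjusted p under 0.05, which is 5 of 8 genes in wild type and 3 of 8 in knockout, and the interval of Olig2 in wild type reaches from 0.651 to 1.35.

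The injury changes of the genotypes were set against each other directly. The 8 log2 differences, knockout change minus wild type change, were all negative, from -0.023 for Ptprz1 to -0.33 for Olig2 (SE 0.24), while 56% of all rows were positive. That of Ptprz1 was 0.044 with quantile normalization, and -0.18 within title numbers 1 to 24 against 0.21 within 25 to 42. Other lineage lists, given below, leaned the same way. Positive differences were found for 0 of 14 mature oligodendrocyte genes (median -0.511, beside -0.145 for the 8 genes). The same was so for 2 of 15 committed genes and 8 of 23 further precursor genes. The lean was not particular to the lineage. Among other lists, 0 of 10 pericyte and smooth muscle, 0 of 7 microglia, 1 of 11 proliferation and 1 of 9 neuron genes were positive. So were 2 of 10 astrocyte genes, 2 of 10 monocyte genes and 1 of 8 striatum markers. Fibroblast genes were mixed (4 of 9), and choroid plexus markers went the other way (9 of 9 positive). The part of these lists in the differences of the 8 genes was not tested. limma called 0 of the 8 and 0 of all 65956 rows, 0% in all, and at an unadjusted p under 0.05 there were 2 of the 8 (Olig1 and Vcan) and 4097 of all rows (6.21%). For Olig1 the difference was -0.29 (SE 0.12, adjusted p = 0.779, 95% confidence interval -0.541 to -0.0438) and for Vcan -0.19 (SE 0.075, adjusted p = 0.779, interval -0.342 to -0.0328). A smaller injury change in knockout was thus not shown for any of them, and calls made in one genotype alone do not show a difference between genotypes.

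The knockout itself was compared with wild type within each procedure. After sham none of the 8 genes was called, against 1.28% of all rows. At an unadjusted p under 0.05 there was 1 of the 8, beside 7293 of all rows (11.1%). That gene was Vcan, higher in KO sham by 0.20 (SE 0.053, limma adjusted p = 0.0546, 95% confidence interval 0.094 to 0.313), with single arrays at 7.20 to 7.39 against 6.93 to 7.21 in WT sham. It passed the threshold without KO CCI replicate 40 or WT CCI replicate 14 (adjusted p = 0.0387 and 0.0471), arrays of neither group compared, and under 5 of the alternative settings (adjusted p = 0.0249 to 0.0488). All 8 genes had a positive difference after sham, which was 0.17 (SE 0.086) for Olig1 and 0.21 (SE 0.17) for Olig2, while 45% of all rows were positive. The signs were the same with quantile normalization and with centring but not within runs. Pdgfra was at -0.0062 within title numbers 1 to 24, and Ptprz1, Gpr17 and Cspg4 were at -0.088, -0.016 and -0.016 within 25 to 42. Mature oligodendrocyte genes, listed below, were also all positive in this comparison (14 of 14, median 0.264, none called). Most committed (14 of 15), astrocyte (9 of 10), proliferation (9 of 11) and microglia genes (6 of 7) were positive as well. So were 7 of 8 striatum markers. Fewer were positive among fibroblast (3 of 9), pericyte and smooth muscle (4 of 10), neuron (4 of 9) and choroid plexus genes (0 of 9). The part of these lists in the differences of the 8 genes was not tested. After CCI none of the 8 was called, against 0.653% of all rows. None was under an unadjusted p of 0.05, beside 6465 of all rows (9.8%). The differences there ran from -0.12 for Olig1 and Olig2 to 0.024 for Sox10.

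The change from sham to injury was also compared between females and males, averaged over genotypes. None of the 8 genes was called, against 0.0106% of all rows. None was under an unadjusted p of 0.05, beside 4058 of all rows (6.15%). The difference furthest from 0 was that of Gpr17, with an injury change lower in females than in males by a log2 difference of -0.33 (SE 0.17, limma adjusted p = 0.831).

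The numbers in the sample titles form a run of 1 to 24, with 4 arrays per group, and a run of 25 to 42, with 3 per group, which the labels do not describe. Within the first run the group means of Olig2 differed by 0.88 in wild type and 0.74 in knockout, Vcan by 0.34 and 0.23, Sox10 by 0.33 and 0.32, and Olig1 by 0.57 and 0.41. limma fitted to that run alone called all of these (adjusted p = 0.00123 to 0.0359). Over all rows 3505 rose in wild type and 4031 in knockout in that fit. Within the second run Olig2 differed by 1.16 in wild type and 0.59 in knockout, and Vcan by 0.49 and 0.20. Only Vcan in wild type was called there (adjusted p = 0.00938), beside 3105 of all rows that rose in wild type and 1294 in knockout. Olig1 in knockout differed by 0.41 in the first run and by -0.03 in the second, where KO sham arrays had a mean of 8.80 against 8.56 in the first. Ptprz1 in wild type differed by 0.44 and 0.13, and limma called it in the first run (adjusted p = 0.0276) and not in the second (0.763).

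**Figure D3:**
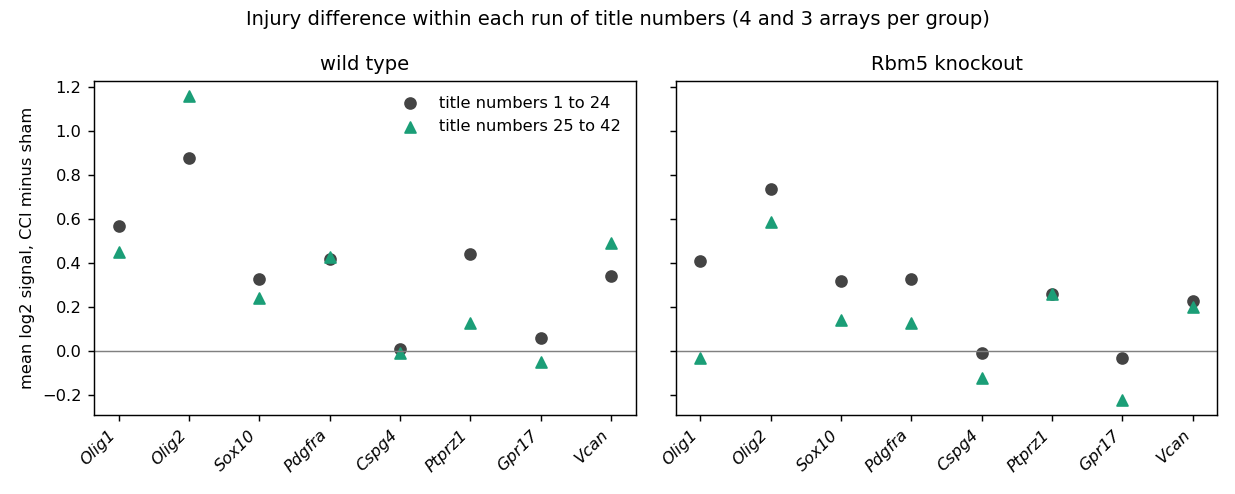
Mean log2 signal of CCI minus sham (vertical axis) for each gene (horizontal axis) within title numbers 1 to 24 (circles, 4 arrays per group) and 25 to 42 (triangles, 3 per group), in wild type on the left and Rbm5 knockout on the right. Olig2, Vcan and Sox10 lie above 0 in both runs and both genotypes, and Olig1 in knockout lies at 0.41 in the first run and -0.03 in the second.

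Other genes of the lineage were described by lists that do not contain the 8. Of 23 measured further precursor genes, 4 rose and 2 fell in wild type (median log2 change 0.041) and 5 rose and 3 fell in knockout (median 0.026), so the list as a whole stayed near the median of all rows. The transcription factor genes Sox4 and Sox11, active in immature cells, rose by 0.67 and 0.58 in wild type (limma adjusted p = 6.88e-07 and 6.18e-06) and by 0.58 and 0.62 in knockout. Bcan, which encodes the matrix proteoglycan brevican, fell by 0.46 and by 0.60 on the log2 scale, and Sox5, a repressor of precursor differentiation, fell by 0.20 and by 0.32. Within title numbers 1 to 24 alone the wild type differences of Bcan and Sox5 were -0.25 and -0.10, not called (adjusted p = 0.282 and 0.485). Of 15 genes of committed and newly formed oligodendrocytes, 8 rose and none fell in wild type (median 0.147), and 2 rose and 2 fell in knockout (median -0.045). Bcas1, an early myelin protein gene, rose by 0.73 in wild type (SE 0.12, adjusted p = 7.67e-05), and its knockout difference of 0.27 was not called (adjusted p = 0.161) except without KO CCI replicate 41 (adjusted p = 0.0243). Myrf, which encodes a transcription factor of myelination, rose by 0.73 in wild type (adjusted p = 3.55e-06) and by 0.32 in knockout (adjusted p = 0.0254). Leaving out KO sham 10, 11 or 33 or KO CCI 24, 40 or 42 ended its knockout call (adjusted p up to 0.0768), as did leaving out the 7 arrays (adjusted p = 0.115), centring (0.0583) and fitting only the arrays compared (0.079). Enpp6, a marker of newly formed oligodendrocytes, fell by 0.28 in knockout (adjusted p = 0.00163) and differed by 0.04 in wild type (adjusted p = 0.754). Tmem163, a zinc transporter gene, fell by 0.40 in knockout (adjusted p = 0.00433), and its wild type difference of -0.27 (adjusted p = 0.0594) was called without any of WT CCI replicates 13, 16 and 36 or KO CCI replicate 22, among brighter rows and among rows of 1 gene.

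Of 14 measured mature oligodendrocyte genes, 8 rose and none fell in wild type (median 0.435), and 3 rose and 1 fell in knockout (median -0.066). The list mean was 9.71 to 10.15 on WT sham arrays against 10.52 to 10.73 on WT CCI arrays, with no overlap. Among knockouts it was 9.89 to 10.45 after sham against 9.69 to 10.72 after injury. Trf, the transferrin gene, led the list at 2.70 in wild type (SE 0.16) and 2.12 in knockout, followed by the tight junction gene Cldn11 at 1.44 and 0.67. Aspa, the gene of an enzyme that supplies acetate for myelin lipids, fell by 0.57 in knockout (adjusted p = 0.00429) and differed by -0.21 in wild type (adjusted p = 0.355). The lists were drawn up with earlier results of these data known, and no row was called for a genotype-dependent injury change. Between genotypes after CCI, 1 of the 14 mature genes and 1 of the 18 proteoglycan and matrix genes described next were lower in knockout, and none was higher. These were Mbp, the myelin basic protein gene (-0.42, SE 0.1, limma adjusted p = 0.049), and Hapln4 (-0.47, SE 0.11, adjusted p = 0.0466), named after their values were seen. Their calls were lost in 25 and 22 of the 28 fits that left out 1 array.

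**Figure D4:**
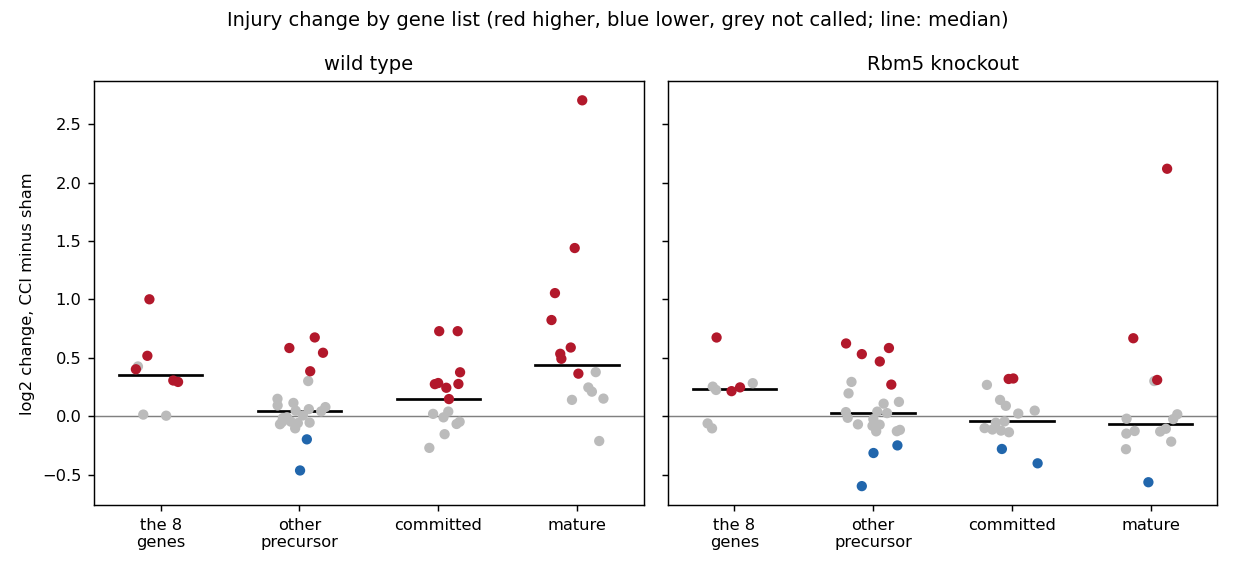
Log2 change from sham to CCI (vertical axis) of each gene in 4 lists (the 8 genes, 23 other precursor genes, 15 genes of committed cells and 14 of mature oligodendrocytes), in wild type and in knockout, with red for genes that rose, blue for genes that fell, grey for those not called and a line at the median. The medians of the 8 genes are 0.35 and 0.24, and those of the mature genes are 0.435 and -0.066.

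The pathways in which the 8 genes act were read from further lists. Of 5 other ligands and receptors of the platelet-derived growth factor family, 1 rose in wild type and none was called in knockout (medians 0.027 and -0.057). That one was Pdgfrb, the receptor of pericytes, at 0.20 in wild type (adjusted p = 0.0374). Its adjusted p rose above 0.05, to as much as 0.0891, when 1 of 8 arrays was left out (WT sham 1, 3, 25, 26 and 27, WT CCI 14, 15 and 16). It was 0.251 without the 7 arrays and 0.0732 after centring. Of 18 genes of chondroitin sulphate proteoglycans, their partners and enzymes, 7 rose and 6 fell in wild type and 6 rose and 8 fell in knockout. Tnc, the matrix glycoprotein tenascin C, rose by 2.16 in wild type (SE 0.14) and by 1.67 in knockout, and Chst11, a chondroitin sulphotransferase gene, rose by 0.54 and by 0.53. Hapln4, which links hyaluronan to proteoglycans of perineuronal nets, fell by 0.44 in knockout (adjusted p = 0.00665), and its wild type difference of -0.30 was not called (adjusted p = 0.0679), though it was without KO CCI replicate 21 or 24, with only the arrays compared, among brighter rows and among rows of 1 gene. Its knockout call was lost without the 7 arrays (adjusted p = 0.0807). Of 20 measured regulators of the lineage, 7 rose and 3 fell in wild type and 8 rose and 3 fell in knockout. Cdk4, a cell cycle kinase gene, rose by 0.73 and by 0.57, and Id1, an inhibitor of helix-loop-helix factors, by 0.52 and 0.39. Ptgds, a prostaglandin synthase gene, fell by 0.85 (not called without the 7 arrays, adjusted p = 0.0528) and by 1.07, and Lingo1, a brake on myelination, fell by 0.45 and by 0.55. Fitted within title numbers 1 to 24 alone, the wild type calls of Pdgfrb, Ptgds and Lingo1 and the knockout calls of Myrf, Tmem163, Aspa, Hapln4 and Ptgds were lost as well. Within 25 to 42 the lost calls were those of Pdgfrb and Id1 in wild type and of Myrf, Tmem163, Enpp6, Cldn11, Aspa, Cdk4 and Id1 in knockout. Some genes, Bcan and Chst11 among them, stand in more than 1 of these lists.

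Markers of other cells, some of which share the 8 genes, were read as well, and their part in the changes was not tested. Not all of these lists moved with injury. In wild type and knockout, 6 and 5 of 10 astrocyte genes rose and 1 fell in each, and the list mean lay between 9.46 and 9.53 on sham arrays and between 10.22 and 10.76 on injured arrays in wild type. In knockout these ranges were 9.43 to 9.98 and 10.26 to 10.68. All 10 monocyte genes rose in wild type and 9 of 10 in knockout, and the list mean was 6.37 to 6.63 (sham) and 7.82 to 8.43 (CCI) in wild type and 6.31 to 6.62 and 7.58 to 8.37 in knockout. Of 11 measured proliferation genes 11 rose in both genotypes, with list means of 5.53 to 5.62, 6.22 to 7.10, 5.58 to 5.74 and 6.33 to 6.97 in the same order. For 9 fibroblast genes, 3 rose and 2 fell in each genotype, and list means overlapped between sham and injury (7.12 to 7.68, 7.05 to 7.56, 7.09 to 7.46 and 6.80 to 7.91). Of 10 pericyte and smooth muscle genes, 2 rose in wild type, and 1 rose and 1 fell in knockout (7.42 to 7.67, 7.42 to 7.73, 7.26 to 7.74 and 7.24 to 7.55). Of 7 measured microglia genes 4 rose in wild type, and 3 rose and 1 fell in knockout, and of 9 neuron genes 4 fell in each. On this log2 scale no marker is listed at 0.

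How the 8 genes varied between animals of a group was described by Pearson correlation of the values with the 4 group means removed (28 arrays, two-sided permutation p within groups, 28 pairs). Olig2 and Sox10 varied together (r = 0.57, permutation p = 0.00086, adjusted p = 0.0214, Spearman rho = 0.63 with adjusted permutation p = 0.0137), and r was 0.60 without the 2 arrays farthest from the median of Olig2. Olig1 and Sox10 did so too (r = 0.60, permutation p = 0.00153, adjusted p = 0.0214, rho = 0.63 with adjusted permutation p = 0.0185), with r = 0.56 without 2 arrays. In WT sham, WT CCI, KO sham and KO CCI alone, r was 0.48, 0.48, 0.91 and 0.64 for Olig2 and Sox10. For Olig1 and Sox10 it was 0.12, 0.81, 0.66 and 0.70. With each run's group means removed, Olig2 and Sox10 had r = 0.62 (adjusted permutation p = 0.0199) and Olig1 and Sox10 r = 0.54 (adjusted permutation p = 0.117). Without the 7 arrays these were 0.72 (adjusted permutation p = 0.0196) and 0.57 (adjusted permutation p = 0.278). Olig1 and Olig2 had r = 0.53 (adjusted permutation p = 0.103). It did not pass, nor did the other pairs by Pearson r, while Olig1 and Gpr17 passed by rank alone (r = 0.54, adjusted permutation p = 0.0749, rho = 0.56 with adjusted permutation p = 0.0447). Vcan had r = 0.06 with Olig1, -0.11 with Olig2 and -0.14 with Sox10 (adjusted permutation p = 0.845, 0.79 and 0.691), and 0.40 with Olig1 without the 7 arrays (adjusted permutation p = 0.426). Pdgfra and Cspg4 were as little related to Sox10 (r = -0.04 and 0.05, adjusted permutation p = 0.845 for both). For Pdgfra and Sox10 the groups differed in sign, with r = -0.53, 0.64, 0.42 and -0.52 in the same order of groups.

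**Figure D5:**
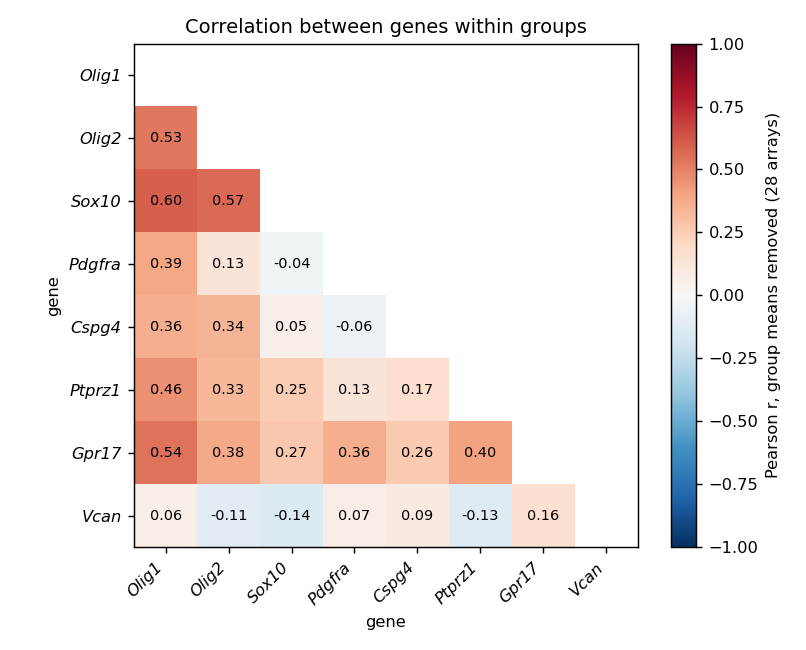
Pearson r between each pair of the 8 genes (both axes list genes) over 28 arrays with the group means removed, coloured from -1 (blue) to 1 (red). The values for Olig1, Olig2 and Sox10 with each other are 0.53 to 0.60, and those of Vcan with the 3 are -0.14 to 0.06.

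The same measure set the genes against the mean of the mature oligodendrocyte, striatum and choroid plexus lists, 24 relations in all, a comparison added after the data were seen. Sox10 varied with the mature list (r = 0.65, permutation p = 0.00059, adjusted p = 0.0142, rho = 0.69 with adjusted permutation p = 0.006, r = 0.59 without 2 arrays). So did Olig2 by r (r = 0.47, permutation p = 0.00232, adjusted p = 0.0278, r = 0.42 without 2 arrays) but not by rank (rho = 0.48, adjusted permutation p = 0.119). Pdgfra and Ptprz1 had r = -0.10 and -0.09 with that list (adjusted permutation p = 0.866 for both). No relation with the striatum or choroid plexus list passed, and the one with the largest r in size was Ptprz1 with striatum (r = -0.48, permutation p = 0.0377, adjusted p = 0.175, rho = -0.44 with adjusted permutation p = 0.212, and r = -0.26 without 2 arrays).

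Among 20031 other named genes (20032 for the Pdgfra row), those whose values with group means removed were most like each of the 8 over the 28 arrays were picked as the 2 with the highest Pearson r, which is a description without a test. For Olig2 these were Lgals1, the galectin 1 gene (0.792), and Cks1b, a cell cycle kinase subunit gene (0.764). For Olig1 they were Nt5c3b (0.779) and Cyhr1 (0.774), for Sox10 Clcn5 (0.743) and Desi1 (0.741), and for Ptprz1 the fatty acid desaturase gene Fads2 (0.891) and Mtss2 (0.868). For Vcan they were Dclk3 (0.641) and Id4 (0.638), for the Pdgfra row Smim18 (0.701) and Mrgprx1 (0.653), for Gpr17 Prr14l (0.701) and Serpinb1a (0.697), and for Cspg4 H3c8 (0.684) and Ddias (0.67).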

How the data were processed

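Deposited values are log2 signals per transcript cluster of the MTA 1.0 array. The log2 unit was inferred from their range, 2.21 to 19.93. Per the labels' protocols, biotin-labelled cDNA was made from 100 ng of Trizol-extracted RNA. The authors' normalization is not given in sources used here. Array medians lay between 5.79 and 5.90 and no normalization was added. Of 72688 rows, 6732 controls were left out, and names came from the platform annotation, updated through RefSeq (GRCm38.p6), with 31167 rows of 1 gene, 1492 of several and 33206 of none. limma 3.58.1 in R 4.3.3 (lmFit, eBayes) fitted group (4 levels) plus sex over all 65956 rows, with Benjamini-Hochberg adjustment over all rows, and was checked on simulated data. Arrays carry no depth, and their number limits precision. Per the design text each array is 1 animal, and p-values set differences against the spread between these animals.

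The 8 genes and all lists were chosen with earlier results of these data known. By rule, the 8 genes, Rbm5, the 2 genes most like each of the 8 and up to 2 genes per direction of each list were to be named. For lists of other cell types counts and, for most, list means are given in place of gene names. Alternatives were no sex term, run, arrays compared, brightness and annotation filters, normalizations, variance trend, array weights, a stricter threshold, striatum as covariate, and arrays left out singly or as 7. Relations between the 8 genes and lists were added after the first fits. Permutations numbered 100000. Python 3.11.15, pandas 2.3.3 and matplotlib 3.10.9 were used.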

Additional observations from a re-analysis of the deposited data

Results flagged for a closer look

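Of 32 combinations of gene and group, 2 held an array far from the other 6 of its group, and chance gives about 1 in 20. Ptprz1 on WT CCI replicate 35 was at 11.98, with the nearest other array at 12.70. The row of Pdgfra and Mir7025 on KO CCI replicate 21 was at 8.08, with the nearest other array at 8.65. On WT CCI replicate 35 Olig1, Olig2, Sox10, Gpr17 and Cspg4 were also the lowest of their group, at 8.61, 8.41, 7.18, 7.89 and 5.57, and Vcan was the highest, at 7.59. That array had the highest mean striatum marker signal of its group, 9.72. Its mean choroid plexus marker signal was 7.30, against a group median of 6.12. The part of either in these values was not tested.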

How the results depend on the processing

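No paired analysis was possible because the groups share no replicate numbers. The other rows of a symbol could not be tried, since each of the 8 genes has 1 row. The main counts of all rows called were 11094 (injury, wild type), 11017 (injury, knockout), 847 (genotype, sham), 431 (genotype, CCI), 0 (difference between injury changes) and 7 (sex). Among the 8 genes they were 5, 3, 0, 0, 0 and 0. In all 28 fits that left out 1 array, Olig1, Olig2, Sox10 and Vcan kept their wild type calls and Olig2, Sox10 and Vcan their knockout calls. Those fits called 4 to 6 of the 8 in wild type, 3 to 5 in knockout and 0 to 1 for genotype after sham, and over all rows 9616 to 11265, 9268 to 11406, 438 to 921, 298 to 508, 0 and 4 to 177. Vcan was the 1 gene of the 8 called for genotype after sham without the sex term, among brighter rows, among rows of 1 gene, after centring and with array weights. In the same order 931, 1209, 864, 686 and 1279 rows were called in all. The fits to brighter rows and to rows of 1 gene tested fewer rows. In knockout 5 were called among brighter rows, with quantile normalization and with array weights, beside 10788, 10586 and 11538 rows in all. Within title numbers 25 to 42, 1 of the 8 was called in wild type and 0 in knockout, and over all rows 5217, 2567, 5 (genotype, sham) and 15 (genotype, CCI). Within 1 to 24, 5 of the 8 were called in wild type and 4 in knockout. All rows called there were 5900 in wild type, 7509 in knockout, 472 for genotype after sham and 125 after CCI. Genotype after CCI gave 131 rows with only the arrays compared and 187 without the 7 arrays. At an adjusted p under 0.01 the counts were 7268, 7060, 278, 181 and, for sex, 4. Genotype after sham gave 1279 with array weights. Sex gave 12 with the run as covariate, 1 among brighter rows, 15 with quantile normalization, 15 with centring and 115 without the 7 arrays. Among rows of 1 gene, 1 row was called for the difference between injury changes. Pairs of genes that varied together fell from 2 to 1 within runs and to 1 without the 7 arrays. Of 1599 values of the 8 genes called under neither setting, 55 had another sign than in the main result. The causes were not tested beyond fewer arrays or rows where a setting has fewer. Signal over background limits Cspg4 most, then Sox10 and Vcan (30.7%, 62.4% and 65.1% of negative control rows were dimmer), and only Ptprz1 exceeded the 95th percentile of those rows.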
